A study of Mus musculus with 6 samples.

Results

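Interleukin and interleukin receptor genes were examined in mesenchymal stem and progenitor cells of mouse bone marrow lacking Snai2 and in the same cells of control animals. The members were all genes in the authors' deposited table whose symbol starts with Il and a digit, which were 6 of its 1285 genes, Il6, Il11ra1, Il31ra, Il3ra, Il20ra and Il1rl2. Il6 encodes a secreted cytokine and the other 5 encode receptor chains. The Snai2-/- group and the control group were littermates of 8 weeks with 3 libraries each. The labels name no allele for the mutant and do not spell out the control genotype. Each library came from 2000 cells sorted as negative for CD45, Ter119 and CD31, which mark leukocytes, erythroid cells and endothelium, and as positive for Nes-GFP, a green reporter under nestin control. The reporter therefore sets which stromal cells were sampled in both genotypes. Snai2 encodes Slug, a zinc-finger repressor of the Snail family that binds E-box DNA.

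Interleukins are secreted proteins through which stromal, immune and blood-forming cells signal to each other. Most act through paired receptor chains that switch on JAK kinases and STAT transcription factors, whereas receptors of the IL-1 family work through the adaptor MyD88, IRAK kinases and NF-kB. In the marrow, stromal IL-6 is known to act on blood progenitors and on the formation of bone-resorbing osteoclasts, and IL-11 acts on bone-forming cells.

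The regions before the transcription starts of the 3 members with the largest fold differences in either direction are shown first, since Slug acts through promoter and enhancer sites. They are 250 bases upstream of the RefSeq start on GRCm38.p6, read in the direction of the gene. That start can differ from the GENCODE start. The regions of Il31ra and Il11ra1 lie inside the GENCODE spans given below for these genes. Those of Il20ra and Il3ra overlap the start of theirs. The Il6 region was chr5:30012864-30013113 on the plus strand, the Il20ra region chr10:19712337-19712586 on the plus strand and the Il31ra region chr13:112580663-112580912 on the minus strand. Capitals mark matches to the general E-box CANNTG and, in Il6, a match to the NF-kB consensus as well.
Il6: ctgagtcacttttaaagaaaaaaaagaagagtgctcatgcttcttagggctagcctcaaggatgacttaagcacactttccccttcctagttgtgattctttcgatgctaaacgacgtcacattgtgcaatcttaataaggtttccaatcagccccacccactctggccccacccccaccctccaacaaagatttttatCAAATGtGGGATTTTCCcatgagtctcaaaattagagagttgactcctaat
Il20ra: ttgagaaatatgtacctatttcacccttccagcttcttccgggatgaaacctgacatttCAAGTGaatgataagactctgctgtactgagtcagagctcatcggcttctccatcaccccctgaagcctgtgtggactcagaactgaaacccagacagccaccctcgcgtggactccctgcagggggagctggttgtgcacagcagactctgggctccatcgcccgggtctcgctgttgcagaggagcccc
Il31ra: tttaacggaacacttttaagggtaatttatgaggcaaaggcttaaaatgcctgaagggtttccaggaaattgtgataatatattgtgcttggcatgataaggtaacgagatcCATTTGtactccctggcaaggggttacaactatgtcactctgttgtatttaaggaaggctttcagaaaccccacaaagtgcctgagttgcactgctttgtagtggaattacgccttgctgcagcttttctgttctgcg
The motif CAGGTG, the E-box form preferred by Snail family factors, was searched on both strands and lay in 0 of the 7 upstream windows of the 6 members, and in 17.2% of 32851 such windows of all genes. CANNTG, which contains CAGGTG, lay in 5 of the 7 windows and in 66.2% of all windows. The canonical kB decamer lay in 0 of the 7 windows and in 0.140% of all windows. The degenerate NF-kB consensus, of which that decamer is one form, was searched only after the Il6 window had been read. Its match in that window lay at positions -44 to -35 from the start, next to the E-box but not overlapping it. The consensus lay in 1 of the 7 windows and in 3.90% of all windows. A match describes these letters and not binding, and windows without a match say nothing about sites elsewhere.

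The values are the authors' group means, 1 per genotype, with their ratio, a p before adjustment (unadjusted p) and a false discovery rate (FDR), which is that p adjusted over all genes tested. Values of single libraries were not analysed here, so no spread stands beside any mean, and whether 1 library sets a mean cannot be told. Of the 6 members 2 had higher means in Snai2-/- cells (Il6 and Il20ra) and 4 had lower means (Il31ra, Il11ra1, Il3ra and Il1rl2) per the authors' deposited table. No member reached an FDR of 0.05 per the authors' deposited table, with values from 0.394 to 0.614, while 6 had an unadjusted p below 0.05. Every gene in the table has such a p, which was 7.69% of the 16718 genes tested, 3.77% being higher and 3.91% lower in Snai2-/- cells. An FDR below 0.05 was reached by 0% of the genes tested, below 0.1 by 0.00598% and below 0.25 by 0.132%, with none of the members among them. An unadjusted p below 0.01 was listed for 1 member, Il31ra, and for 365 of the 1285 genes in the table (2.18% of the genes tested). An absolute log2 ratio of at least 1 was listed for 2 members, Il31ra and Il6, and for 590 of the 1285 genes. These 590, all with an unadjusted p below 0.05, are 3.53% of the genes tested. Tested genes outside the table may also reach that ratio. After centring on the median of the abundant genes in the table, an absolute log2 ratio of at least 1 held for 3 members, Il20ra being the third. The share of all genes tested after that centring was not computed, so 3.53% is not its counterpart. The abundant genes were themselves in the table by their p. Being in the table is what chose the members, so these counts describe them and test nothing. Snai2 itself had means of 9.20 in Snai2-/- cells and 636 in control cells per the authors' deposited table. Its FDR was 0.0758 per the authors' deposited table, so it also missed 0.05 and was the only gene below 0.1.

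The share of interleukin genes in the table was close to that of other genes. GENCODE M21 names 82 protein-coding genes with an interleukin symbol, of which 6 (7.32%) were in the table, against 1185 of 21992 protein-coding symbols (5.39%). By role these were 1 of 37 cytokine genes, 5 of 41 receptor chain genes and 0 of the 4 genes for antagonists, a binding protein and an enzyme. A gene outside the table either had a p that was not below 0.05 or was left untested by the authors. The median log2 ratio of the 6 members, Snai2-/- over control, was -0.51, beside -0.36 over all 1285 genes in the table.

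**Figure D1:**
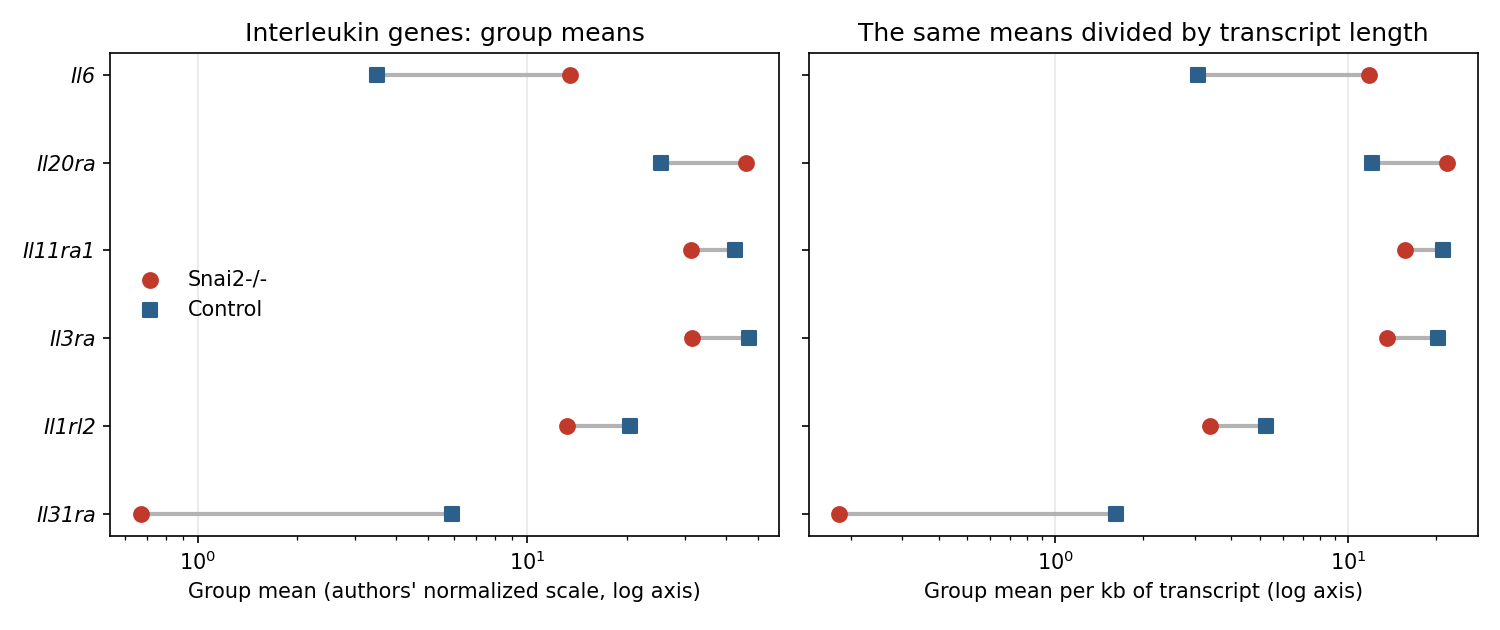
Group means of the 6 interleukin genes in Snai2-/- (red circles) and control (blue squares) cells, on the authors' normalized scale (left) and divided by transcript length in kb (right), both on log axes. Each point is 1 group mean without an error, and Il6 and Il31ra are the 2 genes whose means differ by more than 2-fold.

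Il6, the only cytokine gene among the members, had a higher mean in Snai2-/- cells. Its product binds the receptor chain Il6ra and signals through gp130, the product of Il6st. The mean of Il6 (GRCm38 chromosome 5, 30013114 to 30019981, plus strand, 5 exons) was 13.5 in Snai2-/- cells and 3.50 in control cells per the authors' deposited table. That is a ratio of 3.85, with an unadjusted p of 0.0377 and an FDR of 0.614 per the authors' deposited table, where Il6 ranked 1024 of 1285 by p. The lowest means in the table move in steps of whole reads, from which the number of reads behind a mean can be bounded. The Snai2-/- mean of Il6 rests on between 1486 and 1795 reads over 3 libraries, and the control mean on between 413 and 592 reads. Counting error of the smaller number is thus about 4.92% if every read is taken as independent. The cDNA was amplified, so reads can be copies of the same molecule and the error may be larger. The spread between libraries cannot be given. Among the 359 genes in the table with a total within 2-fold of that of Il6, the median absolute log2 ratio was 0.99, and 53 had a larger one than the 1.95 of Il6.

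The receptor chains for IL-6, Il6ra and Il6st, were not in the table. The 3 genes in the table closest to Il6 in the log2 of both means, over 2 group means, were Hspa4l, Prex1 and Gja5. Hspa4l, a heat-shock protein gene, had means of 13.8 in Snai2-/- and 3.27 in control cells per the authors' deposited table. By these means it lay 0.10 log2 units from Il6. Prex1, an activator of Rac GTPases, had means of 12.4 in Snai2-/- and 3.64 in control cells, and Gja5, a gap junction gene, had means of 11.2 in Snai2-/- and 3.56 in control cells, per the authors' deposited table. With 2 means per gene this likeness holds no more than a level and a ratio. Of 36 protein-coding neighbours examined over all members, 1 was in the table. That gene was Tyms, which encodes thymidylate synthase and lies next to Il6 on chromosome 5. Dnajb6, on the other side of Il6, was not in the table. Tyms had means of 32.2 in Snai2-/- and 19.1 in control cells, a ratio of 1.69 at an FDR of 0.488 per the authors' deposited table.

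Genes of granulocytes that were in the table had higher means in the same group as Il6. The share to set beside the list counts below is 5.39% of all protein-coding symbols. Of 20 neutrophil and monocyte markers 7 were in the table, all 7 with a higher mean in Snai2-/- cells. Their means summed to 820.1 in Snai2-/- and 186 in control cells. Their median log2 ratio was 2.43. Ngp and Ltf, genes of granule proteins, had ratios of 5.72 and 10.4 per the authors' deposited table. The lowest in level was Ly6g, the surface marker used to define neutrophils, with means of 0.931 in Snai2-/- and 0.105 in control cells per the authors' deposited table. None of these 7 stood at 0 in either group. Of 12 general leukocyte markers only Cd48 was in the table, with means of 3.64 in Snai2-/- and 1.21 in control cells per the authors' deposited table, while Ptprc, which encodes CD45, was not in the table. None of 16 B and T lymphocyte markers was in the table. Of 15 osteoblast lineage genes 6 were in the table, 5 with a higher mean and Phex with a lower one. Their means summed to 24024 in Snai2-/- and 6036 in control cells, mostly from Col1a1 and Spp1. Col1a1 had means of 15244 in Snai2-/- and 2546 in control cells at an FDR of 0.582 per the authors' deposited table. Spp1 had means of 7257 in Snai2-/- and 2931 in control cells at an FDR of 0.650 per the authors' deposited table. The part of granulocyte or osteoblast transcripts in the Il6 result was not tested. In bulk RNA, more cells of a type and more RNA per cell cannot be told apart.

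Il20ra, a chain of the receptor for IL-19, IL-20 and IL-24, was the other member with a higher mean in Snai2-/- cells. The mean of Il20ra (chromosome 10, 19712570 to 19760053, plus strand, 7 exons) was 45.9 in Snai2-/- and 25.4 in control cells, a ratio of 1.80 per the authors' deposited table. Its unadjusted p was 0.0199 and its FDR 0.531 per the authors' deposited table. Per kb of its transcript of 2105 bases, Il20ra had the highest Snai2-/- mean of the members, 21.8, against 12.1 in control cells. Its partner chain Il20rb and the ligand genes Il19, Il20 and Il24 were not in the table. No other gene of the 14 on the IL-10 and interferon-lambda list was in the table. An antisense gene, Gm33332, overlaps Il20ra, and since the library chemistry does not mark the strand, reads of both cannot be separated there.

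Il31ra had the largest fold difference of the members and the smallest p. It encodes a gp130-like chain that pairs with the product of Osmr to bind IL-31, a cytokine known for itch. The mean of Il31ra (chromosome 13, 112519898 to 112594360, minus strand, 17 exons) was 0.672 in Snai2-/- and 5.91 in control cells per the authors' deposited table. The Snai2-/- mean was 8.79 times lower, with an unadjusted p of 0.00629 and an FDR of 0.394 per the authors' deposited table. It was also the least abundant member, with between 74.1 and 89.5 reads over the 3 Snai2-/- libraries and between 697 and 1000.4 reads over the 3 control libraries. Counting error of the Snai2-/- reads is about 11.6% if every read is again taken as independent, and may be larger. Large ratios are common at such levels in a table of genes chosen by p. Among the 223 genes with a total within 2-fold of that of Il31ra, the median absolute log2 ratio was 1.52, and 16 had a larger one than its 3.14. Il31 and Osmr were not in the table, nor was Il6st, the neighbour of Il31ra on chromosome 13. A processed pseudogene, Gm3226, overlaps the annotated span of Il31ra on the same strand.

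Il11ra1 had a slightly lower mean in Snai2-/- cells. It encodes the chain that binds IL-11 before gp130 joins. The mean of Il11ra1 (chromosome 4, 41699989 to 41769474, plus strand) was 31.4 in Snai2-/- and 42.5 in control cells, a ratio of 0.738 per the authors' deposited table. Its unadjusted p was 0.0157 and its FDR 0.493 per the authors' deposited table. Its absolute log2 ratio was among the smallest in the table, ranking 1185 of 1285. Its reads may be shared with other genes. The near-identical paralog Il11ra2 is annotated in 3 copies, and 6 protein-coding genes overlap the annotated span of Il11ra1. Of these Galt, a galactose metabolism gene on the same strand, was in the table with means of 13.5 in Snai2-/- and 22.2 in control cells per the authors' deposited table. Il11, the ligand gene, was not in the table.

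Il3ra, the chain that binds IL-3, a growth factor of early blood cells, also had a lower mean. The mean of Il3ra (chromosome 14, 14346275 to 14356011, plus strand, 11 exons) was 31.5 in Snai2-/- and 46.9 in control cells per the authors' deposited table. Its ratio was 0.671, with an unadjusted p of 0.0198 and an FDR of 0.530 per the authors' deposited table. The shared signalling chains Csf2rb and Csf2rb2 and the ligand gene Il3 were not in the table, and Il3ra was the only 1 of the 8 genes on the list of IL-3, IL-5 and GM-CSF and their receptors found there. An antisense gene, Gm48860, overlaps the start of Il3ra.

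Il1rl2 encodes the receptor for the IL-36 cytokines, a branch of the IL-1 family active in skin and other barriers. The mean of Il1rl2 (chromosome 1, 40324610 to 40367562, plus strand, 11 exons) was 13.2 in Snai2-/- and 20.5 in control cells, a ratio of 0.646 per the authors' deposited table. Its unadjusted p was 0.0206 and its FDR 0.535 per the authors' deposited table. Its neighbours in the receptor cluster of chromosome 1, Il1r2, Il1r1, Il1rl1, Il18r1 and Il18rap, were not in the table, nor were the IL-36 genes or the partner chain Il1rap. A processed pseudogene, Gm17970, overlaps Il1rl2 on the same strand. Across all members, 0 of 17 genes for their ligands, antagonists and partner chains were in the table, beside 5.39% of all protein-coding symbols.

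**Figure D2:**
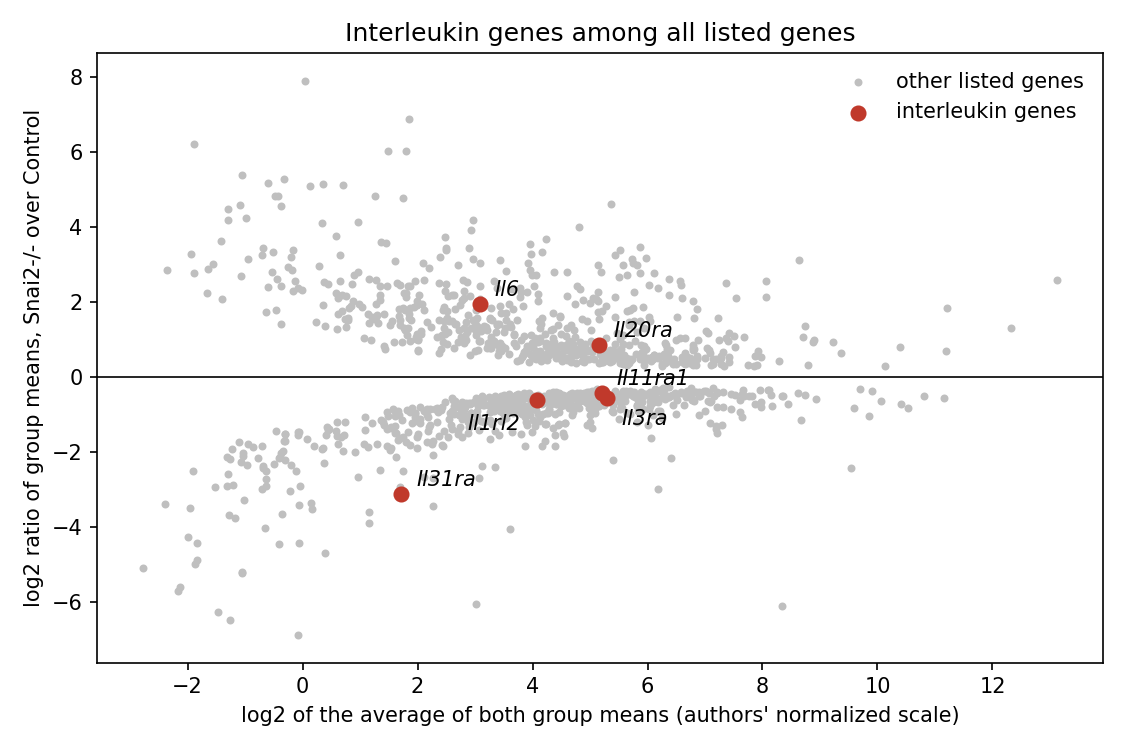
Log2 ratio of the group means, Snai2-/- over control, against the log2 of their average for the genes in the table, with the 6 interleukin genes in red and genes with a mean of 0.0001 in either group left out. The gap around 0 reflects that only genes with an unadjusted p below 0.05 are in the table, and ratios spread more widely at low means, where Il31ra lies.

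The order of the members by their means was not the same in both genotypes. Levels are compared per kb of the transcript with the longest coding sequence. In Snai2-/- cells Il20ra led with 21.8, before Il11ra1 with 15.6, Il3ra with 13.6 and Il6 with 11.8. Il1rl2 followed with 3.38 and Il31ra with 0.183. In control cells Il11ra1 led with 21.1, before Il3ra with 20.3, Il20ra with 12.1 and Il1rl2 with 5.23, while Il6 had 3.07 and Il31ra 1.61. Without values of single libraries, no neighbours in either order can be shown to differ.

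The wider signalling lists gave few further genes, none at an FDR of 0.05, while those named have an unadjusted p below 0.05. Beside each list count stands the 5.39% of all protein-coding symbols that were in the table. The direction of genes outside the table is not known. Of 17 genes on the IL-6 family list 2 were in the table, Il6 and Il11ra1. Il31ra, the gp130-like chain, was counted on the list of remaining interleukins instead. Lif, Osm, Lifr, Osmr and Lepr were not in the table.

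Of 26 JAK-STAT genes 5 were in the table, 4 with a lower and 1 with a higher mean in Snai2-/- cells and a median log2 ratio of -0.71. Stat5a and Stat5b encode the STATs best known downstream of IL-3 and related cytokines. Stat5a had means of 77.3 in Snai2-/- and 217 in control cells, a ratio of 0.356 at an FDR of 0.572 per the authors' deposited table. Stat5b had means of 103 in Snai2-/- and 161 in control cells, a ratio of 0.637 at an FDR of 0.648 per the authors' deposited table. Both are close paralogs, so reads may be shared between them. Socs2, a feedback inhibitor and known STAT5 target, had means of 65.3 in Snai2-/- and 109 in control cells per the authors' deposited table. Stat2, which acts in interferon signalling, had a ratio of 0.611 per the authors' deposited table. Ptpn6, a phosphatase that dampens cytokine receptors and is abundant in blood cells, had means of 7.70 in Snai2-/- and 2.69 in control cells per the authors' deposited table. Stat3 and Socs3, the main mediator and feedback inhibitor of IL-6, were not in the table.

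Of 20 genes on the IL-6 and STAT3 response list 2 were in the table. Lcn2, which is also a neutrophil granule gene and stands on that list too, had a ratio of 5.38, and the repressor gene Bcl6 a ratio of 0.715 per the authors' deposited table. Of 28 genes of the IL-1 family and its adaptors 2 were in the table, both with lower means, Il1rl2 and Irak4. Irak4, the kinase that starts signalling from MyD88-coupled receptors, had means of 11.1 in Snai2-/- and 26.7 in control cells, a ratio of 0.416 at an FDR of 0.328 per the authors' deposited table. None of the 19 genes on the common gamma chain list, the 9 on the IL-12 list, the 12 on the IL-17 list or the 18 on the NF-kB list was in the table. Il31ra was the only 1 of 6 genes on the list of remaining interleukins found there.

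**Figure D3:**
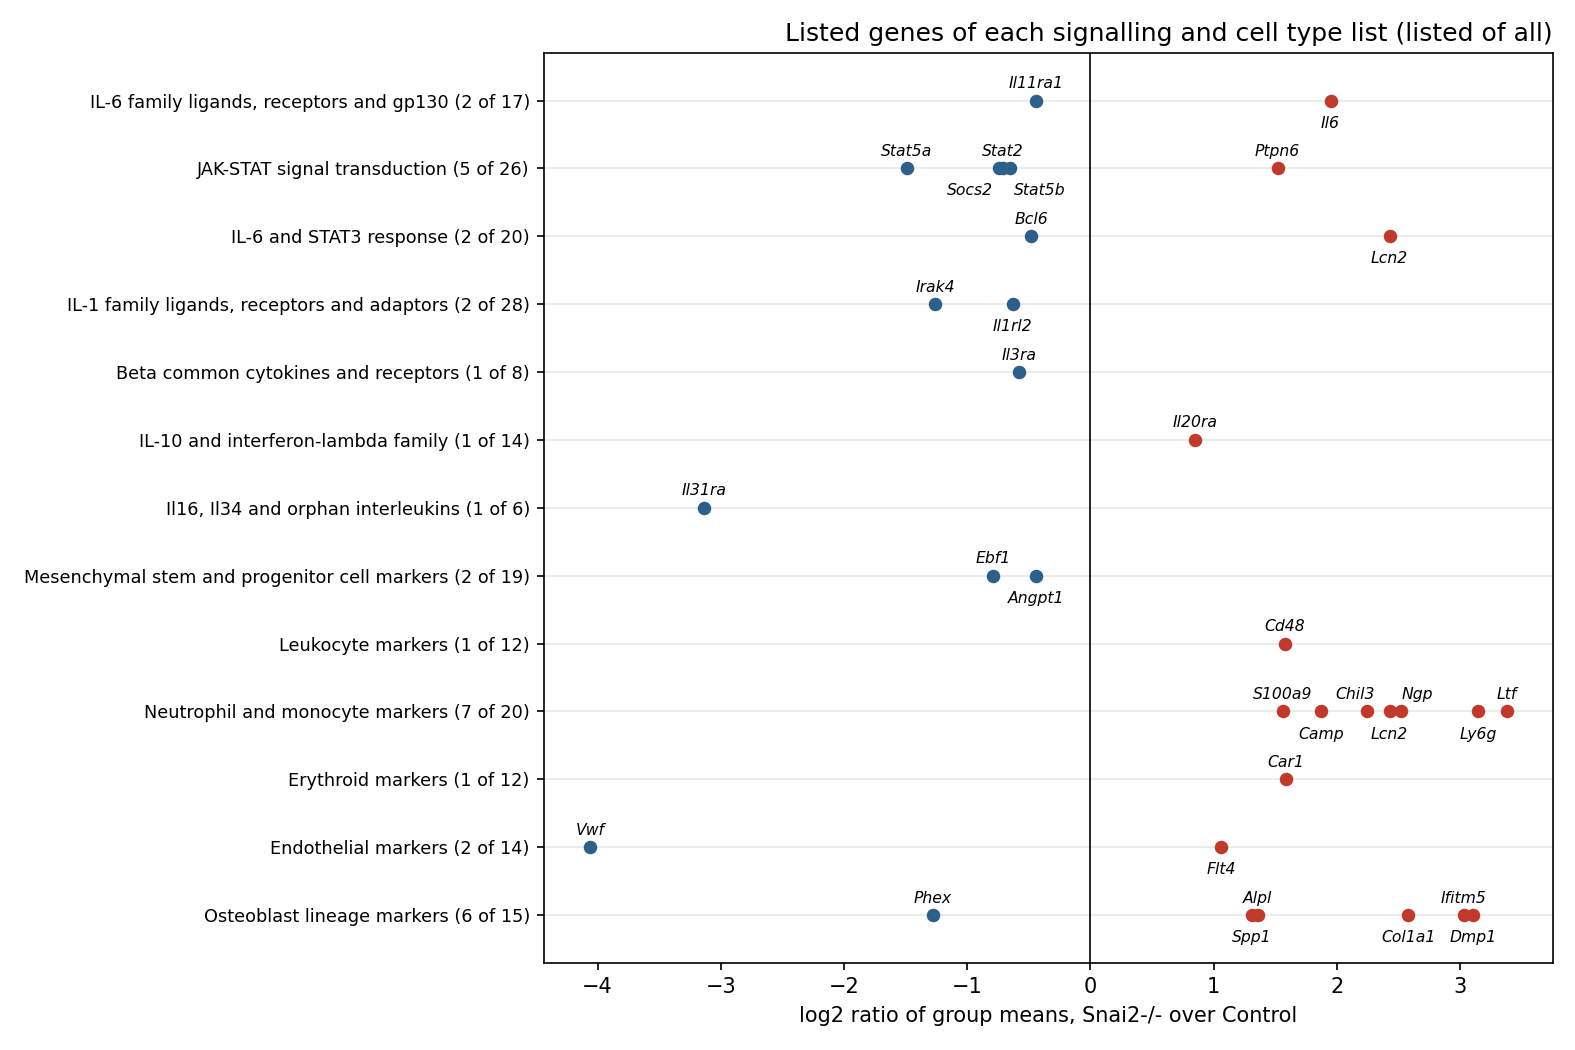
Log2 ratio of the group means, Snai2-/- over control, for the genes in the table from each signalling and cell type list, with higher means in red, lower means in blue and the number in the table of the number on the list beside each name. JAK-STAT genes lie mostly below 0 and the 7 neutrophil and monocyte markers all lie above 0.

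Markers of the sorted cells could be checked only in part. Here too the share beside the counts is 5.39% of all protein-coding symbols. Of 19 mesenchymal stem and progenitor markers 2 were in the table, Ebf1 with means of 210.3 in Snai2-/- and 362 in control cells and Angpt1 with means of 126 in Snai2-/- and 171 in control cells, per the authors' deposited table. Both were thus well detected in both genotypes, and levels of Nes, Lepr and Cxcl12 were not analysed here. Of 12 erythroid markers Car1 was in the table with means of 137 in Snai2-/- and 45.7 in control cells, and of 14 endothelial markers Flt4 and Vwf with ratios of 2.09 and 0.0598 per the authors' deposited table. The part of these cell types in the values of the receptor genes was not tested.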

How the data were processed

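Per the labels' protocols, cDNA was amplified by SMART-Seq v4 and tagged by Nextera XT, chemistries that cover whole transcripts and do not mark the strand. Trim Galore, HTSeq, edgeR 3.12.0 and mm10 stand without roles in the submitters' processing notes; the aligner, annotation and model: not given in the sources used here. Per the file headers, the authors' deposited table gives each gene a p-value, its step-up FDR, a ratio and signed fold change, and a normalized signal as 1 least-squares mean per group. Its mutant columns were taken for the Snai2-/- group and its wildtype columns for the control group. No model was fitted here.

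The number of genes tested, 16718, was found as FDR times rank over p, at its maximum, and came out exactly at 264 ranks. After 0.0001 was subtracted, 81.8% of the 44 Snai2-/- means and 91.9% of the 37 control means under 0.2 were sums of whole reads from 3 libraries within 2e-07. Each read was worth 0.0225 to 0.0272 in Snai2-/- and 0.0177 to 0.0254 in control libraries, which gave the read ranges (counting error only). The same worth of a read gave whole reads for genes with transcripts of 967 to 15300 bases in Snai2-/- (21 genes with a known length) and of 792 to 11595 bases in control means (29 genes). The scale is therefore not per length, and means were divided by transcript length to compare genes. Both steps were recovered in 10 of 10 simulated tables. Those tables held only sums of whole reads and were given the single reads from which the search starts. Recovery there checks the code and not the read ranges of the real data.

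Named genes are all members, Snai2, up to 4 genes per list (18 lists, 273 symbols) and the 3 genes nearest to Il6. Tyms, Galt, Ly6g and the list members beyond 4 were named after their values were seen. From the IL-6 family list 1 gene is not reported here, so counts for that list leave it out. Members and lists were chosen with earlier results of these data known. No label ties each library to a separate animal, and the p-values then measure only the spread between these libraries, which may be technical. Coordinates are from GENCODE M21 on GRCm38 (mm10) and upstream sequences from RefSeq on GRCm38.p6. Python 3.11.15, numpy 2.4.6, pandas 2.3.3 and matplotlib 3.10.9 were used.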

Additional observations from a re-analysis of the deposited data

How the results depend on the processing

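Of the 6 interleukin genes, 1 (Il31ra) had an unadjusted p below 0.01 and 2 (Il31ra and Il6) an absolute log2 ratio of at least 1, while 5 had a higher group mean of at least 10. The wider member rule is not reported here. None reached an FDR of 0.05, 0.1 or 0.25 in the authors' deposited table. The log2 ratio of Il6, 1.95, was 1.12 with a pseudocount of 5, and that of Il31ra, -3.14, was -2.05 with a pseudocount of 1 and -0.94 with 5, as pseudocounts shrink ratios of low means by construction. In the other 15 of 18 recomputations the ratio itself, before its log2 was taken, moved by less than 1.5-fold. None of the 18 changed sign, but a pseudocount added to both means cannot change a sign, so this tests nothing. Ratios were also centred on the median of the 93 abundant genes in the table, -0.35. These genes all have an unadjusted p below 0.05, so their median is no measure of a shift over all genes. Centred in this way, the log2 ratio was 2.30 for Il6, 1.20 for Il20ra and -2.78 for Il31ra. It was -0.09 for Il11ra1, -0.22 for Il3ra and -0.28 for Il1rl2, beside -0.44, -0.58 and -0.63 before centring. Centring could reverse only a negative log2 ratio above -0.35, which no member had. The absolute log2 ratio was then at least 1 for 3 members, Il20ra joining Il31ra and Il6, a count chosen after seeing the data. The share of all genes after this centring was not computed. No paired analysis was possible because each group has 1 deposited mean per gene. For the same reason other normalizations and tools and left-out libraries were not run.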
